A study of Homo sapiens with 6 samples.

Results

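The genes described here are 41 histone lysine methyltransferases and demethylases, listed by symbol and found through their Ensembl identifiers among the 61661 rows of a table of read counts. Each symbol matched a single row. The list was made by function and not from measured values, but earlier results of these data were known when it was made. RNA was sequenced from K562, a human cell line derived from the blast phase of a chronic myeloid leukemia, in 3 groups of 2 libraries each. The shCTR cells, labelled WT, carried a control lentivirus with an inserted nonsense sequence, the shMETTL3 cells a lentivirus with an shRNA against METTL3, and the shMETTL14 cells were labelled METTL14 knockdown. METTL3 and METTL14 form the core of the enzyme complex that places N6-methyladenosine (m6A) on mRNA. All were stable lines grown in RPMI medium with serum and collected in logarithmic growth; the paper describes selection with puromycin for the METTL3 and control lines and does not describe the METTL14 line. A different shRNA against either gene was not analysed here, and the labels do not say whether the libraries of a group came from separate cultures, so the p-values measure only the spread between these libraries.

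Library totals ran from 19292574 to 20115304 counts. METTL3 was at 1788 and 1728 reads in shCTR and 1031 and 938 reads in shMETTL3 libraries, and METTL14 at 656 and 655 reads in shCTR and 375 and 404 reads in shMETTL14 libraries, so both targets were reduced but not lost, to 0.549 and 0.589 of the shCTR level. Replicates differed by more than sampling noise, most of all in the shCTR group. All 10 markers of the K562 line had at least 10 reads in every library, and their sum was 1958 to 1965 CPM in shCTR, 2143 to 2181 CPM in shMETTL3 and 2014 to 2022 CPM in shMETTL14 libraries. The 4 T cell markers together lay between 3.34 and 4.02 CPM (reads scaled to a common library total) in shCTR, between 5.19 and 6.18 in shMETTL3 and between 4.54 and 5.04 in shMETTL14 libraries, nearly all of it from CD3D, whereas CD3E and CD2 had at most 3 reads in any library. Monocyte and granulocyte markers together lay between 1.42 and 2.28 CPM over all libraries. The part of these markers in the results was not tested. Epithelial markers, of which CDH1 and KRT5 were at 0 in every library, moved with the groups through EPCAM alone, from 54.4 to 54.8 CPM in shCTR, 36.5 to 37.1 in shMETTL3 and 40.7 to 42.0 in shMETTL14 libraries.

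Histone lysine methyltransferases transfer a methyl group from S-adenosylmethionine to lysines of the histone tails, nearly all through a catalytic SET domain. Methylation of H3K4, H3K36 and H3K79 marks active genes, whereas methylation of H3K9, H3K27 and H4K20 marks silent or compacted chromatin. The marks are removed by FAD-dependent amine oxidases (KDM1A and KDM1B) and by JmjC dioxygenases, which need iron and 2-oxoglutarate. In myeloid leukemia, KMT2A is a frequent partner in translocations, and EZH2, DOT1L and KDM1A have been studied as drug targets.

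The m6A writer complex prefers adenosines within the letters GGACT of a transcript. These letters were searched on the sense strand of the longest GENCODE transcript of each gene. All 41 genes held at least 1 match, with a median of 8 and a range from 1 in KMT5A to 18 in KMT2A. All tested genes with a known length were split into 4 classes of near-equal size by length. Of all of them 86.4% held a match, and among the 4166 genes of the longest class, which are closer to these genes in length, 99.3% held a match; the median density was 0.86 matches per kilobase there and 1.19 in the 28 of the 41 genes in that class. A match is a string of letters and not a measured m6A site. For 7 of the 8 genes that passed a test in a comparison described below, the first match whose 25 nt lie within a single coding exon is shown, with GGACT in capitals. KMT5A had its only match outside the coding sequence.
EZH1: cctgtggaatGGACTggggctgaag
EZH2: agggaagcagGGACTgaaacggggg
KDM5A: gatagtgggaGGACTcggaccaaac
KDM7A: atatctgcaaGGACTggttccacgg
SETD1B: ctttctcacaGGACTccagctactc
KMT2A: acatttaggtGGACTtctttaaagc
KDM6B: ggtcgcggatGGACTccagcgtttc
On GRCh38, these windows lie at chr17:42712375-42712399 on the minus strand in exon 12 of EZH1, chr7:148817934-148817958 on the minus strand in exon 10 of EZH2, chr12:321075-321099 on the minus strand in exon 18 of KDM5A and chr7:140176747-140176771 on the minus strand in exon 1 of KDM7A. Those of SETD1B (chr12:121809790-121809814, exon 6), KMT2A (chr11:118473005-118473029, exon 3) and KDM6B (chr17:7847295-7847319, exon 10) are on the plus strand. The coding transcripts used held 3 matches in the coding sequence and 4 outside it in EZH1, 2 and 1 in EZH2, 5 and 6 in KDM5A, 4 and 5 in KDM7A, 10 and 0 in SETD1B, 14 and 4 in KMT2A, and 6 and 1 in KDM6B. In EZH2 and SETD1B these were not the longest transcripts. The one of SETD1B had 5969 nt, of which 5898 nt were coding, so little outside the coding sequence was searched. The longest transcript of SETD1B, of 8185 nt, held 13 matches.

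All 41 genes were expressed and passed the filter on low counts, with a median of 1653 reads per library averaged over the 6 libraries and 39 of the genes at 500 reads or more. KDM8, the lowest, had between 74 and 90 reads. To compare levels between genes, CPM was divided by the length of the longest transcript in kilobases. On this scale the median of the 41 genes in shCTR cells was 12.4 CPM per kilobase, against 5.65 for all tested genes with a known length. KMT5A, which monomethylates H4K20 in step with the cell cycle, stood highest at 82.3 ± 2.40 (SD, n = 2), followed by the demethylase KDM1A at 66.8 ± 3.47 and EZH2, the catalytic subunit of Polycomb repressive complex 2 (PRC2) that prevails in dividing cells, at 63.1 ± 0.55. EZH1, the alternative catalytic subunit, was at 20.4 ± 0.52 CPM per kilobase. At the lower end stood SETDB2 at 4.72 ± 0.53, the H3K9 and H3K36 demethylase KDM4C at 2.72 ± 0.54 and KDM8 at 1.57 ± 0.06 CPM per kilobase. Of the 40 pairs of neighbours in this order, 26 had overlapping shCTR values, so the order within the middle of the list is not resolved. The whole order, its upper end included, also depends on the transcript taken. With the median transcript length of each gene in place of the longest, KMT2D was highest at 446 CPM per kilobase in shCTR cells. KMT5A, KDM1A and EZH2 were then at 287, 70.0 and 92.0. That order correlated with the one given here at a Spearman's rho of 0.50 across the 41 genes.

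**Figure D1:**
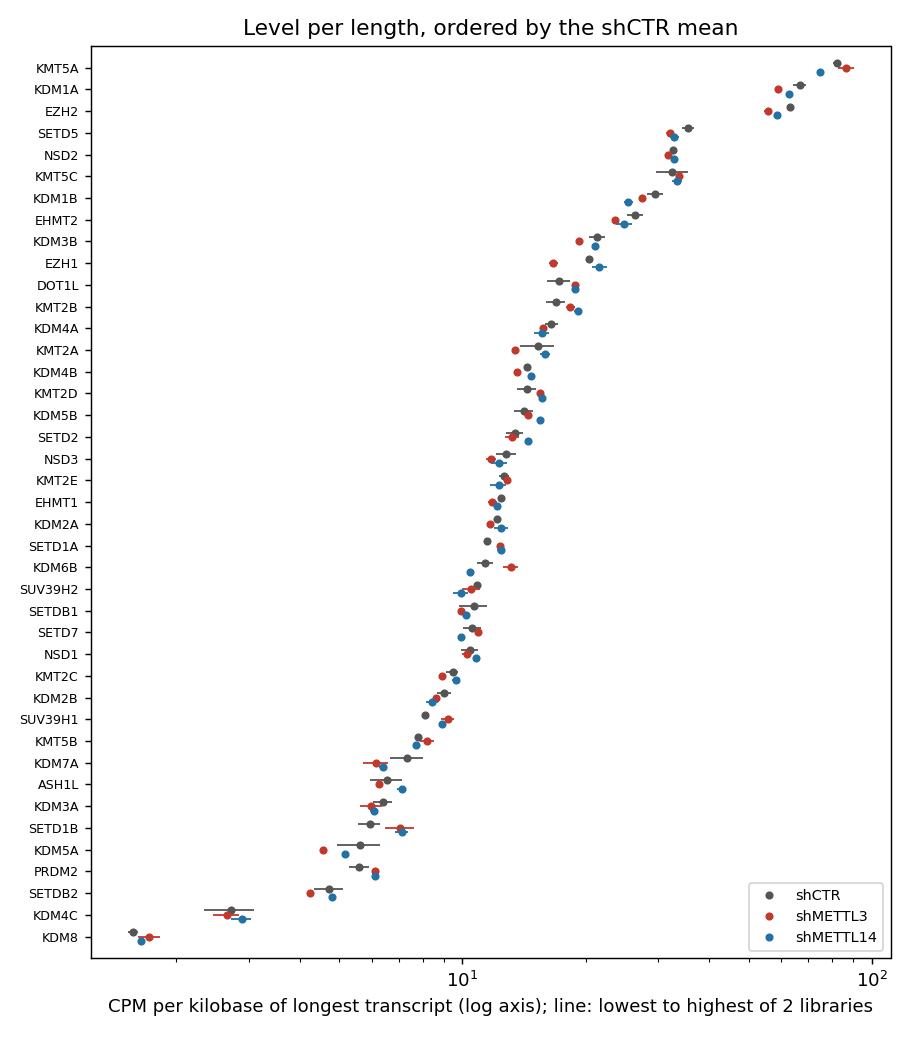
Level of the 41 genes in CPM per kilobase of the longest transcript (log axis), ordered by the shCTR mean; dots are group means and lines run from the lower to the higher of the 2 libraries. KMT5A, KDM1A and EZH2 stand above 60 in shCTR cells, KDM4C and KDM8 below 3, and the 3 groups lie close to each other for each gene.

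These are long mRNAs. The longest transcript of the 41 genes had a median of 6827 nt, against 2983 nt for the 16662 tested genes with a known length, and ranged from 2308 nt in KMT5C, a methyltransferase of H4K20, to 19419 nt in KMT2D, a methyltransferase of enhancer H3K4. None fell in the shortest of the 4 length classes, 3 fell in the second, 10 in the third and 28 in the longest, which starts at 4777 nt. The coding sequence made up much of this length, with a median of 3981 nt and a maximum of 16611 nt, again in KMT2D.

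The first comparison asks how METTL3 knockdown bears on these mRNAs. Compared with shCTR cells, shMETTL3 cells had lower EZH1, EZH2, KDM5A and KDM7A and higher SETD1B, and the other 36 of the 41 genes did not pass the test. The 5 calls are 12.2% of the genes, while 16.5% of all 17686 tested genes passed (8.73% higher and 7.73% lower), or 22.1% of the 7399 tested genes whose mean reached 500 counts, so the share called was not above the background. Scaling by library size alone turned the split of calls from 1544 higher and 1368 lower genes to 2158 and 858 over all genes, and from 1 and 4 to 2 and 1 among the 41. In bulk RNA, fewer cells that express a gene and less of its RNA per cell cannot be told apart. All changes were small. The log2 fold changes ran from -0.30 in KDM5A to 0.25 in SETD1B with standard errors between 0.057 and 0.190, and for 40 of the 41 genes the 95% interval lay within 0.5 on the log2 scale to either side of 0. The exception was KDM8, whose low count left an interval from -0.26 to 0.53. Values were below 0 for 26 genes and above 0 for 15, with a median of -0.06, where the median of all tested genes was 0.0030. The libraries of both groups did not overlap for 27 of the 41 genes, where 56.0% of all tested genes did not overlap. Of these, 9 were higher in shMETTL3, against 28.7% of all tested genes, and 18 were lower, against 27.3%.

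EZH1 (chromosome 17, 42700275 to 42745049, minus strand), with a longest transcript of 4623 nt, gave the smallest adjusted p of the 41 genes. The shCTR libraries held 1832 and 1840 reads of EZH1, the shMETTL3 libraries 1551 and 1511, and the shMETTL14 libraries 1881 and 2040. Both shMETTL3 libraries thus lay below the other 4. The log2 fold change from shCTR was -0.29 (standard error 0.0677, adjusted p = 0.00576 by the quasi-likelihood test of edgeR, with Benjamini-Hochberg adjustment over all tested genes), which is 0.817 of the shCTR level. The call was lost in 1 of the 14 alternative fits, the one without shMETTL3 replicate 2, where the log2 fold change was -0.26 (adjusted p = 0.110 by edgeR).

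EZH2 (chromosome 7, 148807383 to 148884321, minus strand; 3641 nt) stood at 228 and 231 CPM in shCTR, 207 and 198 CPM in shMETTL3 and 212 and 215 CPM in shMETTL14 libraries. All 4 knockdown libraries were below both shCTR libraries, which were close to each other. In shMETTL3 cells it reached 0.882 of the shCTR level (log2 value -0.18, standard error 0.0587, adjusted p = 0.0396 by edgeR). This call is near the threshold and was lost in 8 of the 14 alternatives, where the adjusted p reached at most 0.332.

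Of the 12 JmjC demethylases, KDM5A and KDM7A were lower, none passed the test as higher and 10 were not called. KDM5A (chromosome 12, 280129 to 389454, minus strand; 10763 nt), which removes H3K4 methylation, was at 67.7 and 53.1 CPM in the shCTR libraries against 48.2 and 49.9 CPM in the shMETTL3 and 55.1 and 56.1 CPM in the shMETTL14 libraries. The shMETTL3 libraries were lowest, but the shCTR libraries differed from each other by more (0.35 on the log2 scale) than the groups did (log2 fold change -0.30, standard error 0.0886, adjusted p = 0.0242 by edgeR). Without shCTR replicate 1 the log2 fold change of KDM5A was -0.12 and no longer passed (adjusted p = 0.335 by edgeR), and the call was lost in 7 of the 14 alternatives. KDM7A (chromosome 7, 140084746 to 140177035, minus strand; 9272 nt), a demethylase of H3K9 and H3K27, showed the same spread, with 74.1 and 61.8 CPM in shCTR, 61.1 and 52.9 CPM in shMETTL3 and 58.0 and 60.5 CPM in shMETTL14 libraries. The log2 value was -0.25 with a standard error of 0.0855 (adjusted p = 0.0470 by edgeR), and without shCTR replicate 1 it was -0.12 (adjusted p = 0.395 by edgeR); the call was lost in 8 of the 14 alternatives, DESeq2 among them. KDM6B, which removes H3K27 methylation and so acts against EZH1 and EZH2, had a value of 0.21 that missed the threshold (adjusted p = 0.0509 by edgeR). It was called higher with the replicate block (adjusted p = 0.0278), with library size alone (0.0148) and without shCTR replicate 2 (0.0119), whereas with the length and GC offset the value of KDM6B was 0.0038 and was not called. The remaining 9 of this family had log2 fold changes between -0.14 in KDM3B and 0.13 in KDM8.

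Among the 8 H3K4 methyltransferases and relatives, SETD1B was called higher and none lower. SETD1B (chromosome 12, 121804180 to 121832584, plus strand; 8185 nt), a catalytic subunit of the complexes that deposit H3K4 trimethylation at promoters, was at 45.5 and 51.6 CPM in shCTR, 53.0 and 62.4 CPM in shMETTL3 and 60.4 and 56.1 CPM in shMETTL14 libraries. The shMETTL3 libraries were above both shCTR libraries by a narrow margin, at a log2 value of 0.25 with a standard error of 0.0848 (adjusted p = 0.0491 by edgeR). The call was lost in 10 of the 14 alternatives, and the value of SETD1B was 0.16 without shCTR replicate 1 and 0.05 with the length and GC offset (adjusted p = 0.693 by edgeR). SETD1A, its paralog, was at 0.11, KMT2B at 0.12 and KMT2D at 0.11, and KMT2A and KMT2C were at -0.19 and -0.08, all short of the threshold. With the length and GC offset KMT2A was called lower, at -0.26 (adjusted p = 0.00176 by edgeR). The value of KMT2A was -0.32 without shCTR replicate 2 and -0.04 without shCTR replicate 1. KMT2C has near-identical partial copies elsewhere in the genome, so its reads are uncertain.

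None of the 7 H3K9 methyltransferases passed the test in shMETTL3 cells, with log2 fold changes from -0.17 in EHMT2 to 0.18 in SUV39H1, which trimethylates H3K9 at pericentromeric heterochromatin. The 6 H3K36 methyltransferases and relatives were likewise not called, and their values were all below 0 and close together, from -0.14 in SETD5 to -0.02 in SETD2, the enzyme for H3K36 trimethylation. DOT1L, the H3K79 methyltransferase and the only methyltransferase here without a SET domain, was at 0.13 with a 95% interval from -0.01 to 0.27. The 3 H4K20 methyltransferases had values between 0.06 and 0.07. Both FAD-dependent demethylases were below 0, KDM1A at -0.18 (adjusted p = 0.0535 by edgeR) and KDM1B at -0.11. KDM1A was called lower with the scaling of DESeq2 in edgeR, the replicate block, the length and GC offset, both together, and DESeq2. With library size alone, without the filter and in the fit of the compared groups only, KDM1A was not called. The plot of each library shows that for many of these genes the 2 shCTR libraries lie as far apart as the groups do.

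**Figure D2:**
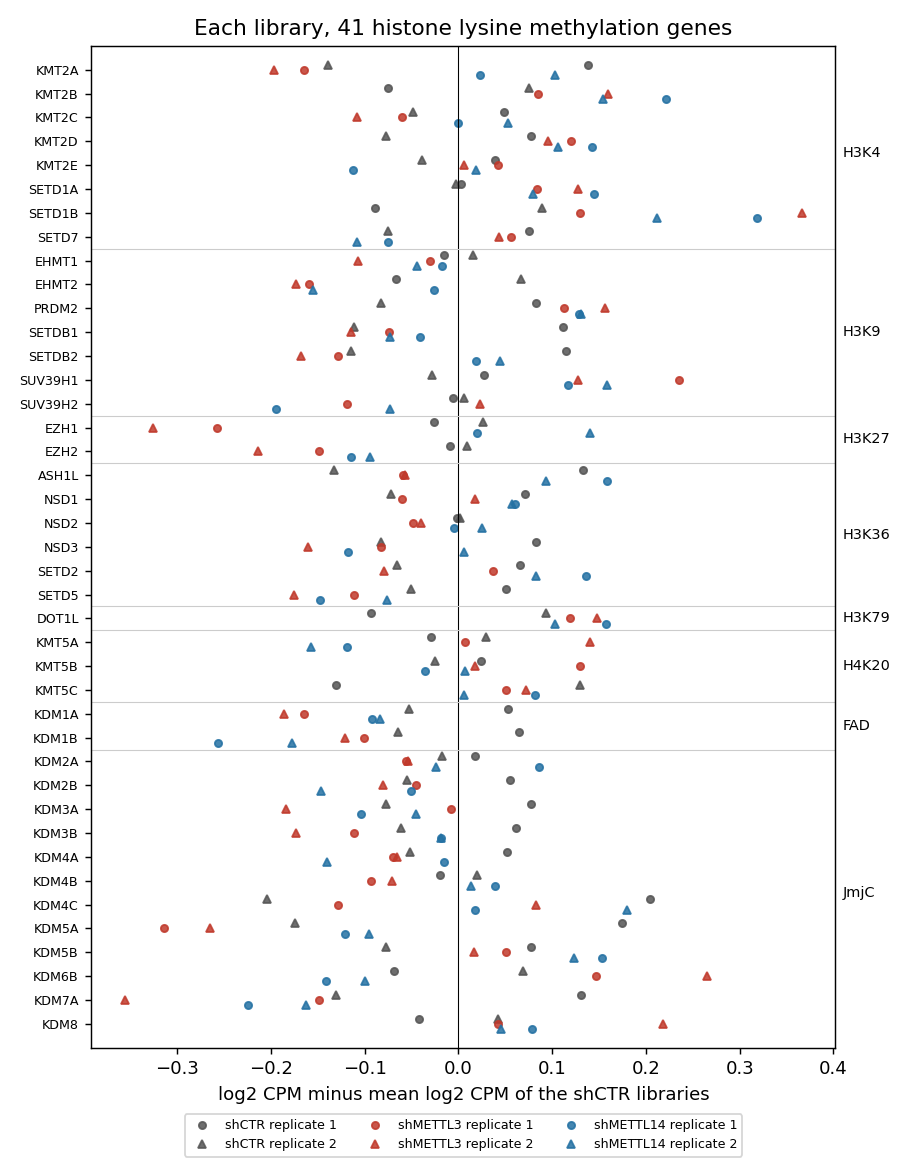
Each of the 6 libraries for the 41 genes, grouped by the histone lysine they act on or by enzyme family, as log2 CPM minus the mean log2 CPM of the shCTR libraries; circles are replicate 1 and triangles replicate 2. For EZH1, EZH2, KDM5A and KMT2A, among others, both shMETTL3 libraries lie below the other 4. The grey shCTR symbols are far apart for KDM5A, KDM7A and KMT2A.

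The number of genes called in a comparison depended on single libraries. Where a group was left with 1 library, the spread came from the other groups, and the lone library was assumed to vary as they did. In the shMETTL3 comparison, the median log2 fold change of the 41 genes was -0.09 without shCTR replicate 2 and -0.02 without shCTR replicate 1. The medians of all tested genes in these fits were 0.0093 and 0.0070. Leaving out any other single library gave a median of the 41 genes between -0.09 and -0.02. Within shCTR, 27 of the 41 genes were higher in replicate 1 and 14 in replicate 2, with a median log2 ratio of 0.10, while the median of all tested genes was -0.0041. This gap went with length: the median log2 ratio of replicate 1 to replicate 2 was -0.04 for all tested genes of the shortest class and 0.06 for those of the longest, and 0.12 for the 28 of the 41 genes in the longest class. The shMETTL3 and shMETTL14 pairs showed medians of 0.02 and 0.00078 over the 41 genes. For 23 of the 41 genes, among them 2 of the 5 called, the gap between the shCTR libraries was larger than the change in shMETTL3 cells.

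Transcript length was set beside the change. Across the 41 genes, which share libraries and are not independent, the log2 fold change in shMETTL3 cells and the log2 length had a Pearson's r of -0.07 and a Spearman's rho of -0.05, and across the 16662 tested genes r was 0.08 and rho 0.05. In shMETTL14 cells the values over the 41 genes were 0.27 and 0.27, and for the difference between the knockdowns -0.33 and -0.39, against 0.02 and 0.01, and 0.06 and 0.04, over all tested genes. Leaving out shCTR replicate 1 moved rho to 0.17 in shMETTL3 and 0.50 in shMETTL14 cells. By length class, the median of all tested genes was -0.03, 0.02, 0.01 and -0.0014 from short to long. The median of these genes was 0.13 over the 3 in the second class, -0.11 over the 10 in the third and -0.05 over the 28 in the longest. The share of all tested genes called rose with length, from 9.51% in the shortest to 22.3% in the longest class, where 3 of 28 of these genes were called. When each library's smooth trend on length and GC content was removed, 11 of the 41 genes were called, all lower. Over all 17686 tested genes this fit called 3563, of which 1638 were higher and 1925 lower. EZH1, KDM5A and KDM7A were among the 11 while SETD1B and EZH2 were not. The median of the 41 genes was then -0.10, against 0.0012 over all tested genes.

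**Figure D3:**
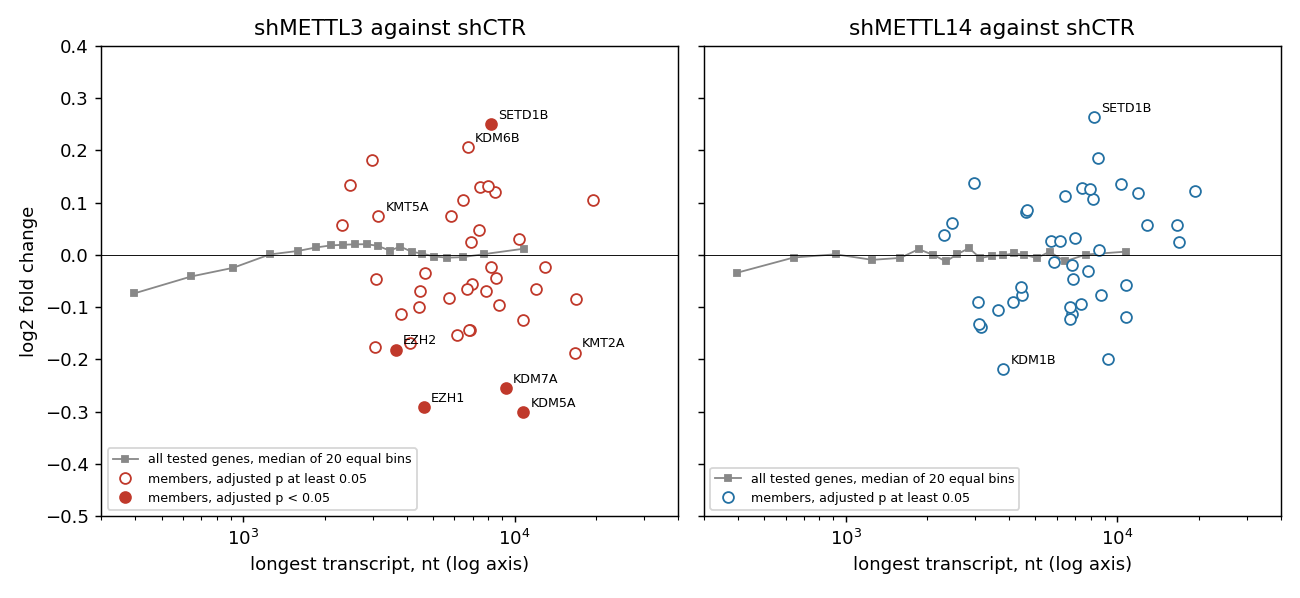
Log2 fold change from shCTR against the length of the longest transcript (log axis) for the 41 genes, filled where the adjusted p was under 0.05; grey squares join the medians of all tested genes in 20 bins of equal size. The grey squares lie closest to 0 away from the shortest bins, and the genes lie between -0.30 and 0.26 at all lengths.

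The second comparison asks the same of METTL14 knockdown. None of the 41 genes passed the test in shMETTL14 cells, and DESeq2 also called 0. Of all tested genes 6.69% passed in edgeR, 3.43% higher and 3.26% lower (9.29% where the mean reached 500 counts). The log2 fold changes ran from -0.22 in KDM1B, a demethylase of H3K4 (3811 nt), to 0.26 in SETD1B, with 21 genes above 0 and 20 below. The libraries did not overlap for 20 of the 41 genes, against 48.9% of all tested genes, with 10 higher (25.0% of all) and 10 lower (23.9%). All 41 of the 95% intervals lay within 0.5 on the log2 scale to either side of 0, the widest reach being -0.38 in KDM7A and 0.46 in KDM8. SETD1B and KDM1B came nearest to the threshold, with adjusted p of 0.0704 and 0.0559 by edgeR. Without shCTR replicate 1 the median log2 fold change of the 41 genes was 0.03, against 0.0034 over all tested genes. In that fit SETD1B was at 0.18, KDM7A at -0.06 and KDM5A at 0.07, where the fit of all libraries gave KDM5A -0.12. With the replicate number as a block, SETD1B was called higher and KDM1B lower. Both comparisons use the same shCTR libraries, so like values in both knockdowns are not independent: SETD1B was at 0.25 in shMETTL3 and 0.26 in shMETTL14 cells, DOT1L at 0.13 in each, and KDM7A at -0.25 and -0.20.

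**Figure D4:**
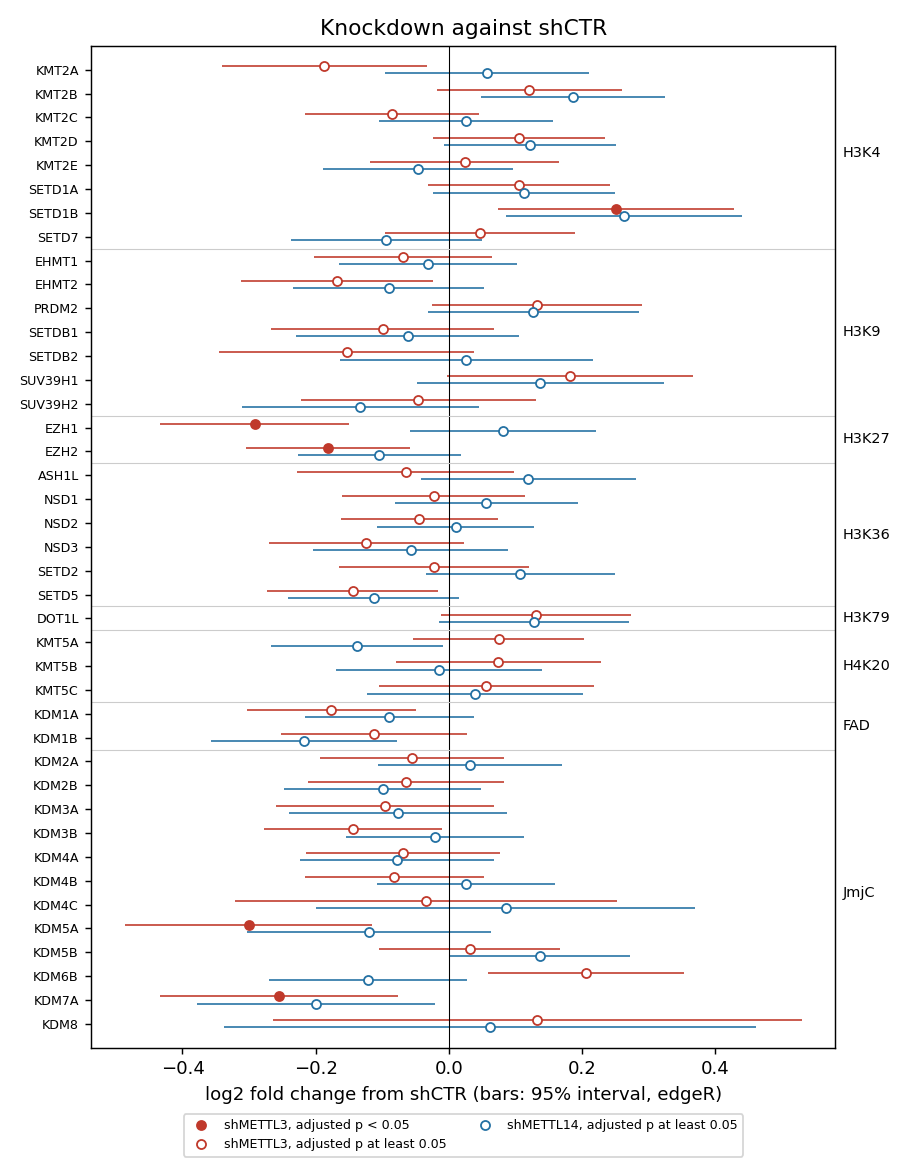
Log2 fold change from shCTR with its 95% interval from edgeR for shMETTL3 (red) and shMETTL14 (blue), grouped by the histone lysine acted on or by enzyme family; filled dots had an adjusted p under 0.05. The 5 filled dots are EZH1, EZH2, KDM5A, KDM7A and SETD1B in shMETTL3 cells; for EZH1 and KDM6B the knockdowns lie on opposite sides of 0.

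The knockdowns were then compared with each other, which leaves the shCTR libraries out of the difference. Of the 41 genes, EZH1 and KMT2A were lower and KDM6B and KMT5A higher in shMETTL3 than in shMETTL14 cells, or 9.76% of the genes against 12.1% of all tested genes (6.65% higher and 5.49% lower). The libraries did not overlap for 22 of the 41 genes, against 56.7% of all, with 5 higher (28.4% of all) and 17 lower (28.3%). EZH1 differed by -0.37 (standard error 0.0676, adjusted p = 8.18e-04 by edgeR, 95% interval -0.51 to -0.23), and this call held in all 14 alternatives. KDM6B (6713 nt) was at 72.7 and 79.9 CPM in shCTR, 84.3 and 91.6 CPM in shMETTL3 and 69.1 and 71.1 CPM in shMETTL14 libraries. The shMETTL3 libraries were highest and the shMETTL14 libraries lowest, with a difference of 0.33 between the knockdowns (standard error 0.0706, adjusted p = 0.00365 by edgeR). The difference passed in 12 of the 14 alternatives. In the fit of all 6 libraries, neither knockdown differed from shCTR past the threshold for KDM6B; with the length and GC offset it was lower in shMETTL14 cells, at -0.20 (adjusted p = 0.0356 by edgeR). The other H3K27 enzymes among the 41 genes were not called between the knockdowns, with EZH2 at -0.08 and KDM7A at -0.06.

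KMT5A (3140 nt) was at 253 and 264 CPM in shCTR, 259 and 285 CPM in shMETTL3 and 238 and 232 CPM in shMETTL14 libraries, a difference of 0.21 between the knockdowns (standard error 0.0617, adjusted p = 0.0274 by edgeR). For KMT2A (16628 nt), a methyltransferase of H3K4 at HOX and other developmental genes, the values were 279 and 230 CPM in shCTR, 226 and 221 CPM in shMETTL3 and 257 and 272 CPM in shMETTL14 libraries. The shCTR values of KMT2A lay far apart, on either side of the shMETTL14 values, and the difference between the knockdowns was -0.24 (standard error 0.0736, adjusted p = 0.0345 by edgeR). Exons of other annotated genes cover 18.9% of the exonic bases of KMT2A, and the strand setting of the counting is not given in the sources used here. Over the 14 alternatives the difference of KMT5A ran from 0.15 to 0.28, and its call was lost in 3 of them. For KMT2A the difference ran from -0.29 to -0.20, and the call was lost in 6.

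The partners of these enzymes were taken from 5 lists of complex subunits and 1 of relatives outside the 41 genes, 74 genes in all, of which 71 were tested. In shMETTL3 cells 5 of the 71 were higher and 11 lower, or 22.5% against 16.5% of all tested genes and 22.1% of those whose mean reached 500 counts, and in shMETTL14 cells 0 were higher and 5 lower, or 7.04% against 6.69% and 9.29%. Of 10 PRC2 partners, EED and JARID2 were lower and EPOP was higher in shMETTL3 cells, and EED and RBBP4 were lower in shMETTL14 cells. EED, the subunit that binds trimethylated H3K27 and is needed by both EZH1 and EZH2, had 1413 and 1235 reads in shCTR, 829 and 889 reads in shMETTL3 and 1047 and 1008 reads in shMETTL14 libraries. All 4 knockdown libraries were below both shCTR libraries, with log2 fold changes of -0.65 in shMETTL3 (standard error 0.0735, adjusted p = 5.17e-06 by edgeR) and -0.38 in shMETTL14 cells (standard error 0.0724, adjusted p = 0.00267), larger than any among the 41 enzymes. JARID2, an accessory subunit that helps target the complex, was at -0.31 in shMETTL3 cells (adjusted p = 0.00204 by edgeR) and -0.12 in shMETTL14 cells, and EPOP, an elongin-binding accessory subunit, at 0.41 (adjusted p = 0.00923) and 0.02. SUZ12, another core subunit, named here after its values were seen, was not called, at -0.0058 and -0.04. RBBP4, a histone chaperone shared with other complexes, was at -0.15 and -0.27, past the threshold in shMETTL14 cells (adjusted p = 0.00919 by edgeR).

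Among 11 partners of H3K9 methylation, CBX3 (HP1 gamma, which binds methylated H3K9) and PPHLN1 (a subunit of the HUSH silencing complex) were lower in shMETTL3 cells, at -0.34 each, and TASOR, another HUSH subunit, was higher at 0.22, while none was called in shMETTL14 cells. Of 12 CoREST partners, HDAC1 was lower (-0.23) and GFI1B, an erythroid and megakaryocytic repressor that recruits KDM1A, higher (0.29) in shMETTL3 cells, whereas RCOR1 (-0.27) and ZMYM3 (-0.22) were lower in shMETTL14 cells. Of 6 DOT1L partners, AFF1 (-0.43) and MLLT10 (-0.20) were lower in shMETTL3 cells. The 14 COMPASS partners, shared subunits of the H3K4 methyltransferase complexes and subunits of single complexes, gave 1 call in each knockdown, BOD1 (-0.35) in shMETTL3 and ASH2L (-0.34) in shMETTL14 cells, both lower. Of 18 tested relatives, KDM4D (1.08, with 14 to 48 reads per library) and SMYD3 (0.30) were higher, and 3 were lower in shMETTL3 cells, with KDM6A (-0.28) and SETD4 (-0.26) the furthest down. These are log2 fold changes from shCTR with an adjusted p under 0.05 in edgeR.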

How the data were processed

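The 6 RNA-seq libraries of K562 cells, 2 per group, were grouped by the submitters' labels. Per the labels, mRNA was selected by oligo(dT), and the authors deposited whole-number read counts per gene without normalization for 61661 identifiers; HTSeq 0.6.1 and hg38 are named in the submitters' processing notes, and the aligner, annotation and strand setting are not given in the sources used here. Of the identifiers, 986 are unannotated genes that held 0.635% to 0.703% of the reads per library, and they were kept in the totals. No molecular identifiers are described, so PCR copies were not told apart.

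Symbols, positions and transcripts came from a table of gene names and GENCODE release 29 (GRCh38). The longest transcript may be a noncoding isoform, as in EZH2. All 6 libraries entered one fit by the quasi-likelihood method of edgeR 4.0.16 (R 4.3.3), after filterByExpr at 10 counts left 17686 genes and TMM factors were set, adjusted p-values (Benjamini-Hochberg) being called under 0.05. Standard errors are the log2 fold change divided by the root of F, and 95% intervals are not adjusted for multiple tests. The alternatives were DESeq2 1.42.0, other scalings, no filter, fits of the 2 groups alone, a block for the replicate number, an offset for length and GC content (mgcv 1.9.3, known for 94.2% of tested genes) and leaving out each library. The members and lists were chosen with earlier results of these data known and written from general knowledge. Named are all members called in a comparison, ends of ranges, and the 2 largest rises and falls called per partner list. In 5 simulations of shMETTL3 against shCTR on 17323 genes on average, with 200 genes changed by a factor of 2, edgeR recovered 74.4% (96.1% at 50 counts or more), while 4.84% of its calls were false. These rates do not hold for changes as small as those of the 41 genes, whose largest log2 value in size was -0.37. All simulated libraries shared the same trend of spread with level, without the length-linked gap between the shCTR libraries. Protein sequences were not used here. The result of 1 marker list is not reported here.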

Additional observations from a re-analysis of the deposited data

Results flagged for a closer look

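For 4 of the 41 genes the effects of the knockdowns differed by edgeR's test of shMETTL3 against shMETTL14, and they are listed for that reason. The difference in log2 fold change was -0.37 for EZH1 (-0.29 in shMETTL3 and 0.08 in shMETTL14 cells, lower in 2 of 2 shMETTL3 libraries), 0.33 for KDM6B (0.21 and -0.12), 0.21 for KMT5A (0.07 and -0.14) and -0.24 for KMT2A (-0.19 and 0.06). The adjusted p ranged over the 14 alternatives from 5.99e-06 to 0.0471 for EZH1, from 6.71e-04 to 0.0981 for KDM6B, from 0.00221 to 0.372 for KMT5A and from 2.31e-04 to 0.280 for KMT2A, all from fits by edgeR or DESeq2. With 2 libraries in a group, single libraries were not screened for outlying values.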

How the results depend on the processing

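The counts of members called (5 in shMETTL3, 0 in shMETTL14 and 4 between the knockdowns) depended on the fit, and the causes were not tested. The members called in shMETTL3 were 3 with library size alone, 1 without the filter, 1 with the compared groups only, 3 with DESeq2, 11 with the length and GC offset and 13 with that offset and the replicate block. Over all genes the same fits called, in that order, 3016, 2185, 2407, 1757, 3563 and 4062. In shMETTL14 the members called were 1 with library size alone, 2 with the replicate block, 2 with the offset and 3 with both. Over all genes these fits called 1186, 1459, 1667 and 2143. Between the knockdowns 9 members were called with the offset and 11 with both, where 3098 and 3645 of all genes were called. The median log2 fold change of the members was 7.69e-05 in shMETTL3 and -0.0081 between the knockdowns with library size alone, where the median of all genes in shMETTL3 was 0.06, and between the knockdowns it was -0.10 with the offset, with and without the block. The partner genes called in shMETTL3 were 9 without the filter, 10 with the compared groups only, 8 with DESeq2, 26 with the offset and 29 with the block added. Between the knockdowns they were 7 with DESeq2, 21 with the offset and 24 with both, and in shMETTL14 they were 9 with both. Over all genes, DESeq2 called 1757, 712 and 1242 in shMETTL3, in shMETTL14 and between the knockdowns (edgeR 2912, 1184 and 2148), the fit without the filter called 766 in shMETTL14, and the block with the offset called 2143 in shMETTL14 and 3645 between the knockdowns. The median level per kilobase was 86.2 with the median transcript length.

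Leaving out each library in turn gave 0 to 15 members called in shMETTL3, 0 to 6 in shMETTL14 and 1 to 6 between the knockdowns. The corresponding ranges were 1102 to 3569, 341 to 1913 and 942 to 2953 for all genes and 5 to 20, 0 to 8 and 4 to 18 for partner genes. The members' median ran from -0.09 to -0.02, from -0.04 to 0.03 and from -0.048 to -0.025, and Spearman's rho of change with length from -0.15 to 0.17, from 0.052 to 0.50 and from -0.41 to -0.30. Signs turned for SETD1B between the knockdowns (0.017 with library size alone, and -0.13 to 0.10 leaving out libraries), KDM5A in shMETTL14 (-0.28 to 0.066), KMT2A in shMETTL14 (-0.076 to 0.20) and KDM7A between the knockdowns (-0.16 to 0.048). Of these, KDM5A was called at its lower end, without shCTR replicate 2.

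Whether the replicate numbers pair the samples is not settled here. Deviations of same-numbered libraries correlated at 0.0614, 0.0051 and -0.0200 across 17686 genes, which with 2 libraries a group does not exclude pairing. With the replicate block, 7 members were called in shMETTL3 and 4 between the knockdowns. In all, 3264, 1459 and 2478 genes were called with the block, against 2912, 1184 and 2148 without it. With 2 libraries a group the precision is limited by the spread between libraries.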

Other observations

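Across the 41 genes, the GC content of the longest transcript ranged from 38.5% in KDM7A to 66.1% in KMT5C, and its Pearson's r with the log2 fold change was 0.52 in shMETTL3 and 0.39 in shMETTL14 cells; across the 16662 tested genes these values were 0.20 and 0.11. For the difference between the knockdowns r was 0.21 over the 41 genes, smaller in size than the r of -0.33 with length. The genes share the same 6 libraries, so these are descriptions without a test. Of the 5 genes called in shMETTL3 cells, KDM7A (38.5%), EZH2 (42.7%), KDM5A (42.9%) and EZH1 (50.5%) were lower and SETD1B (61.3%) was higher. The density of GGACT had an r of 0.29 with the change in shMETTL3 cells and 0.37 in shMETTL14 cells across the 41 genes, and 0.06 and 0.03 across all tested genes.

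Across the 41 genes, the log2 ratio of shCTR replicate 1 to replicate 2 had a Spearman's rho of 0.44 with transcript length, against 0.13 within shMETTL3 and -0.06 within shMETTL14. The largest gaps within shCTR were in KDM4C (0.39, with 285 and 208 reads) toward replicate 1 and in KMT5C (-0.26) toward replicate 2.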
